A study of Homo sapiens with 6 samples.

Results

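The genes described here encode the DNA replication machinery: 46 genes chosen by name for their part in copying the genome, out of 18030 genes in the deposited tables. They were found by Entrez identifier, and 46 of 46 had a row and passed the filter on low counts. Messenger RNA was sequenced from Huh-7, a human hepatocellular carcinoma cell line, in 2 groups of 3 libraries. The oeALKBH5 cells (genotype label ALKBH5 overexpression) were electroporated with a plasmid for ALKBH5, an RNA demethylase that removes N6-methyladenosine, with 3 pulses of 1250 V and 20 ms, and harvested 60 h later. The control cells carry the genotype label WT. Every sample has the treatment label Untreated beside an identical electroporation protocol, so whether the controls were electroporated or given an empty plasmid is not stated. No selection or cloning of transfected cells is described. The labels call the replicates biological without saying that they were separate cultures or transfections; p-values here measure the spread between these libraries, which may be technical.

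Replication starts in G1, when the origin recognition complex (ORC) with CDC6 and CDT1 loads the ring-shaped MCM2-7 helicase on DNA, a step called licensing that geminin (GMNN) blocks by binding CDT1. At S phase CDC45 and the GINS complex join MCM2-7 to form the active helicase. Polymerase alpha with primase then lays primers, polymerases epsilon and delta extend them on the sliding clamp PCNA, ribonucleotide reductase and thymidylate synthase supply building blocks, and the CAF-1 complex packs new DNA into nucleosomes. Many of these genes are transcribed under E2F factors as cells enter S phase, and in hepatocellular carcinoma they are widely used as signs of proliferation. In bulk RNA, a change in the share of cells in S phase and a change in mRNA per cell cannot be told apart.

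Promoter sequence is shown first because the choice of members did not use it, and because letters of the E2F motif were more frequent in it than in other promoters. RefSeq promoters (GRCh38.p14, 250 bases before to 50 bases after the start) matched 40 of the 46 genes; GINS4, MCM4, MCM5, POLD3, RPA2 and RPA3 had no entry. An E2F match was any of TTTCCCGC, TTTCGCGC, TTTGCCGC and TTTGGCGC on either strand, and matches on opposite strands can overlap. Such letters stood in 18 of 40 promoters, 45.0%, against 5.20% of the 11484 promoters of tested genes and 3.33% of 27305 promoters of the same length. The letters CCAAT, on either strand, stood in 57.5% of the members' promoters and 36.5% of those of tested genes. The GC box GGGCGG, also on either strand, stood in 70.0% and 67.7%. The cell cycle element CHR (TTTGAA or TTCGAA, either strand) stood in 5.00% and 11.8%. A match is a description of the letters and not a bound site.

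The stretches below come from 6 genes that span the outcomes described further on: POLE, CDT1 and TYMS (higher in oeALKBH5), MCM6 and ORC3 (lower) and PCNA (did not pass). Each is read 5′ to 3′ on the gene's strand within its RefSeq promoter, in GRCh38.p14, with E2F letters in capitals; in MCM6 the capitals cover overlapping matches on both strands.
POLE, chr12:132687343-132687372, minus strand: ctgggtgggagcGCGCCAAAtttctcccct
CDT1, chr16:88803743-88803772, plus strand: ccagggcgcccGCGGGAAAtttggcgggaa
TYMS, chr18:657603-657632, plus strand: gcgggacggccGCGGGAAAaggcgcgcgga
MCM6, chr2:135876496-135876555, minus strand: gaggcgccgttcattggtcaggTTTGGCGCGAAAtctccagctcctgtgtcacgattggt
ORC3, chr6:87590105-87590134, plus strand: ctgcagccgcgagggcgcGCGGGAAAtccc
PCNA, chr20:5126648-5126707, minus strand: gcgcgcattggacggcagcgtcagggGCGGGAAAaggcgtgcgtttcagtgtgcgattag
The letters occurred in each outcome: in 7 of 16 promoters of members that rose, 2 of 4 of those that fell and 9 of 20 of those that did not pass.

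The libraries held 18607084 to 18826479 estimated counts in oeALKBH5 and 19265686 to 19378030 in control, and the members' own counts ran from 310 (POLE2) to 11956 (MCM7) in a library. ALKBH5, the targeted gene, stood at 169, 133 and 110 CPM (counts scaled to a common library total) in oeALKBH5 replicates 1, 2 and 3 and at 70.5, 74.2 and 75.5 CPM in the controls. The groups did not overlap (log2 fold change 0.90, SE 0.177, adjusted p = 0.0154), but the call was lost without control replicate 2 or 3 (adjusted p = 0.0529 and 0.0589, in a range of 3.37e-10 to 0.0589 over all alternatives). The 10 hepatocyte and liver cancer markers, among them ALB and AFP, summed to 21856, 23251 and 23450 CPM in oeALKBH5 libraries and 33009, 33051 and 33551 CPM in controls, and 9 of the 10 fell. The 8 fibroblast and stellate markers summed to 31.3 to 32.3 CPM against 24.6 to 26.5 CPM, with 2 of 5 tested markers higher and 1 lower. Of 5 endothelial markers 4 were below 0.5 CPM in every library, and the 1 tested, PECAM1, fell (10.6, 11.5 and 11.5 CPM against 20.3, 16.8 and 17.5 CPM, log2 fold change -0.70, adjusted p = 3.81e-06). The 7 leukocyte markers summed to 360 to 394 CPM in oeALKBH5 and 346 to 355 CPM in controls, mostly from LYZ and CD68. Of the 4 tested 0 passed. The part of these shifts in the results below was not tested.

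Genes of the replication machinery rose more often than they fell in oeALKBH5 cells, by small amounts. Of the 46 genes, 19 were higher, 5 were lower and 22 did not pass at an adjusted p under 0.05 (edgeR). That is 41.3% higher and 10.9% lower, beside 20.8% and 22.0% of all 14168 genes tested, and 52.2% passed in either direction beside 42.8%. The libraries of the groups did not overlap for 21 members as higher and 5 as lower, beside 25.8% and 27.0% of all genes (52.8% either way). The members' median log2 fold change was 0.07 against 0.0062 for all genes. No member reached an absolute log2 fold change of 1; the largest was POLE at 0.47, and the median absolute value of the 24 that passed was 0.20 against 0.30 for all passing genes. The split depended on scaling and tool, for the members and for all genes: 24 members were higher and 1 lower with library size alone, beside 30.1% and 14.4% of all genes. DESeq2 gave 15 and 4, beside 12.4% and 14.6% of 17975 genes. That set is without the count filter and so holds low genes that the other shares leave out. There were 23 and 1 on the authors' FPKM (fragments scaled to transcript length and library total), beside 29.4% higher and 16.5% lower of all genes on that scale. Of the 19 that rose, CDT1, MCM10, GINS3, GINS4, POLD1, POLE, TYMS and CHAF1A passed under each of the 18 alternatives; of the 5 that fell, MCM6 did.

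**Figure D1:**
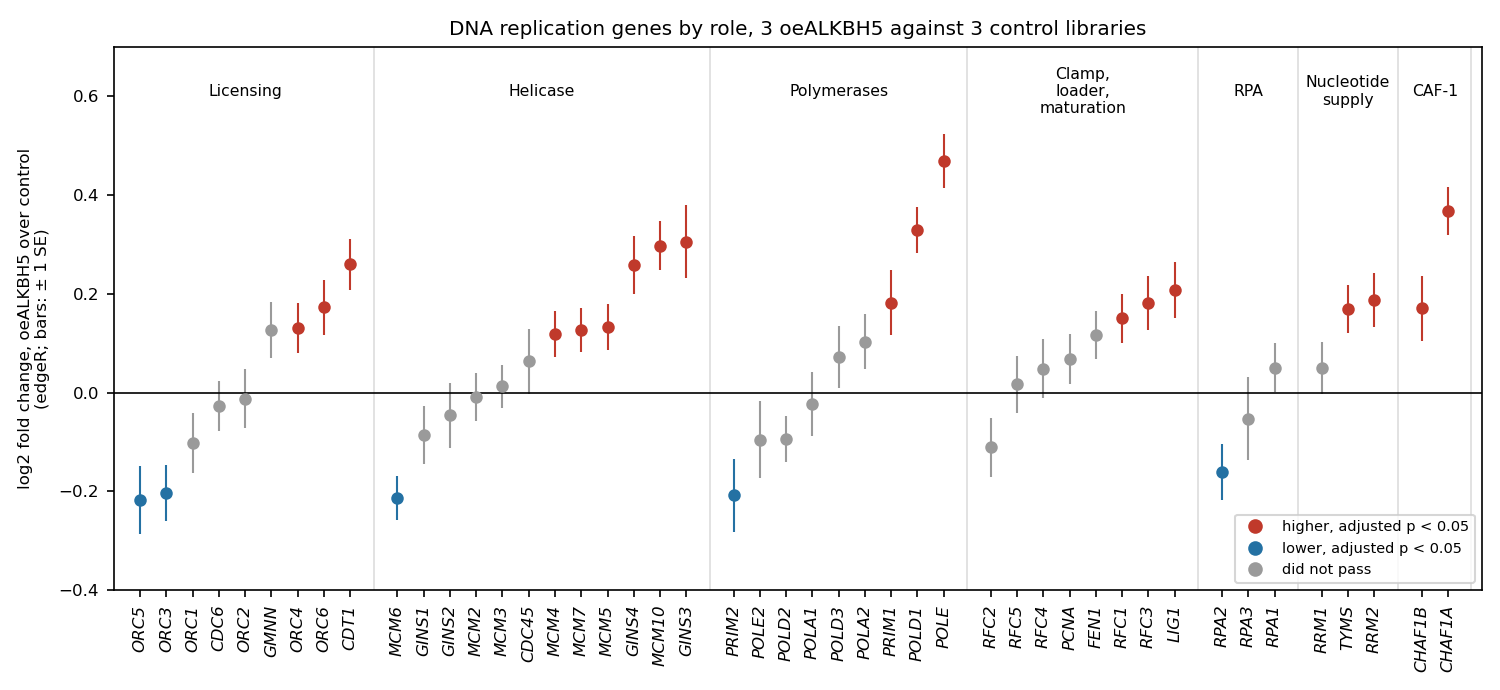
Log2 fold change of oeALKBH5 over control for each of the 46 genes (points; bars are 1 SE either side; 3 libraries a group), in blocks by role and ordered within each block. Red points are higher and blue points lower at an adjusted p under 0.05. Each block from licensing to RPA spans both signs, from ORC5 at -0.22 to POLE at 0.47. Both genes of the CAF-1 block lie above 0.

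Licensing genes went both ways, with 3 of 9 higher (CDT1, ORC4 and ORC6), 2 lower (ORC3 and ORC5) and a median of -0.01. That is 33.3% and 22.2%, beside 20.8% and 22.0% of all genes. CDT1, the factor that brings MCM2-7 to origins (Entrez 81620, chromosome 16 at 88803213 to 88809258 on GRCh38), held 132, 128 and 138 CPM in oeALKBH5 and 118, 107 and 108 CPM in control. All oeALKBH5 libraries lay above all controls (log2 fold change 0.26, SE 0.0514, adjusted p = 4.08e-04). Its inhibitor GMNN held 76.7, 82.5 and 88.5 CPM against 76.6, 72.7 and 77.5 CPM, with overlap between the groups, and did not pass (0.13, adjusted p = 0.0744). CDC6, the loader that works with ORC, averaged 88.7 ± 3.51 CPM against 90.4 ± 3.04 CPM (mean ± SD, n = 3 libraries), with overlap (edgeR log2 fold change -0.03, adjusted p = 0.685).

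Within ORC, whose subunits bind the origin together, the mRNAs moved apart. ORC5 held 31.4, 36.0 and 35.8 CPM in oeALKBH5 and 37.6, 39.1 and 43.3 CPM in control (-0.22, SE 0.0691, adjusted p = 0.0152), and ORC3 54.7, 60.1 and 62.9 against 66.5, 69.4 and 68.9 CPM (-0.20, SE 0.0566, adjusted p = 0.00653). ORC6, the smallest subunit, held 46.1, 48.7 and 49.4 CPM against 42.9, 43.0 and 42.1 CPM (0.17, SE 0.0554, adjusted p = 0.0163). In each case the groups did not overlap. ORC4 was higher (0.13, adjusted p = 0.0415), while ORC1 (-0.10) and ORC2 (-0.01) did not pass. ORC3 and ORC5 lost their calls with library size alone and on FPKM, where their sign did not change, so that licensing then had 4 higher (GMNN added) and 0 lower. With DESeq2 ORC4 and ORC6 lost their calls instead, which left 1 higher and 2 lower. With 1 library left out, ORC5 missed the threshold without control replicate 3 (adjusted p = 0.123, range 0.00559 to 0.215 over all alternatives). ORC6 did without oeALKBH5 replicate 2 or control replicate 3 (0.0546 to 0.0738, range 0.00117 to 0.0738), and ORC4 without oeALKBH5 replicate 2 or control replicates 1 or 2 (0.107 to 0.199, range 0.00279 to 0.199).

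Helicase genes had 6 of 12 higher and 1 lower, beside 20.8% and 22.0% of all genes. The counts were the same with library size alone, beside 30.1% and 14.4% of all genes. They also held on FPKM, beside 29.4% and 16.5%. The number higher dropped to 4 without oeALKBH5 replicate 2 or 3 or control replicate 1. It was 3 without control replicate 2 or 3 and at an adjusted p under 0.01. MCM6 stayed lower in each of these fits. The rise was led by genes that act after loading. GINS3, a subunit of the GINS complex, held 24.9, 22.5 and 24.6 CPM in oeALKBH5 and 19.3, 20.5 and 18.4 CPM in control (0.31, SE 0.0739, adjusted p = 0.00237). MCM10, which helps the assembled helicase to start, held 86.2, 88.5 and 85.5 against 69.8, 72.3 and 69.6 CPM (0.30, SE 0.0489, adjusted p = 6.42e-05). GINS4 held 47.7, 52.7 and 50.6 against 40.5, 41.8 and 44.0 CPM (0.26, SE 0.0587, adjusted p = 0.00144). For these 3 genes the lowest oeALKBH5 library was above the highest control. Of their partners, GINS1 (-0.09), GINS2 (-0.05) and CDC45 (0.06) did not pass (adjusted p = 0.463 for CDC45).

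MCM6 was the 1 gene of the MCM2-7 ring that fell. It held 180, 187 and 188 CPM in oeALKBH5 and 211, 218 and 214 CPM in control, with no overlap (-0.21, SE 0.0445, adjusted p = 6.62e-04, range 2.93e-05 to 0.0355 over all alternatives). MCM5 (0.13), MCM7 (0.13) and MCM4 (0.12) were higher, with adjusted p of 0.0275, 0.0265 and 0.0466, and MCM2 (-0.01) and MCM3 (0.01) lay near 0. These calls were close to the threshold. MCM4 lost its call without oeALKBH5 replicate 2 or 3 or any 1 control (adjusted p = 0.101 to 0.138, range 0.00149 to 0.138), MCM7 without oeALKBH5 replicate 3 or any 1 control (0.0570 to 0.118, range 4.58e-04 to 0.118), and MCM5 without oeALKBH5 replicate 2 or control replicates 2 or 3 (0.0634 to 0.176, range 9.56e-04 to 0.176).

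Per transcript length, MCM7 was by far the most abundant subunit of the ring, at 252 ± 8.53 FPKM in oeALKBH5 and 219 ± 1.57 FPKM in control, and MCM3, MCM2, MCM4, MCM6 and MCM5 followed in the controls at 85.8, 76.3, 59.5, 56.3 and 39.9 FPKM. In oeALKBH5 MCM6, at 51.3 ± 1.22 FPKM, lay further below MCM4, at 68.2 ± 3.13 FPKM. The share of a subunit in its complex's summed FPKM does not depend on how libraries are scaled. MCM6 made up 8.69%, 8.95% and 8.49% of the MCM2-7 sum in oeALKBH5 and 10.2%, 10.8% and 10.5% in control, and MCM7 42.4% to 43.0% against 40.6% to 40.9%. The shares did not overlap between the groups for either subunit (exact permutation test, two-sided p = 0.1, the smallest that 3 against 3 libraries can give). The MCM2-7 sum was 589 ± 17.9 FPKM in oeALKBH5 and 536 ± 2.02 FPKM in control (exact permutation p = 0.1).

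**Figure D2:**
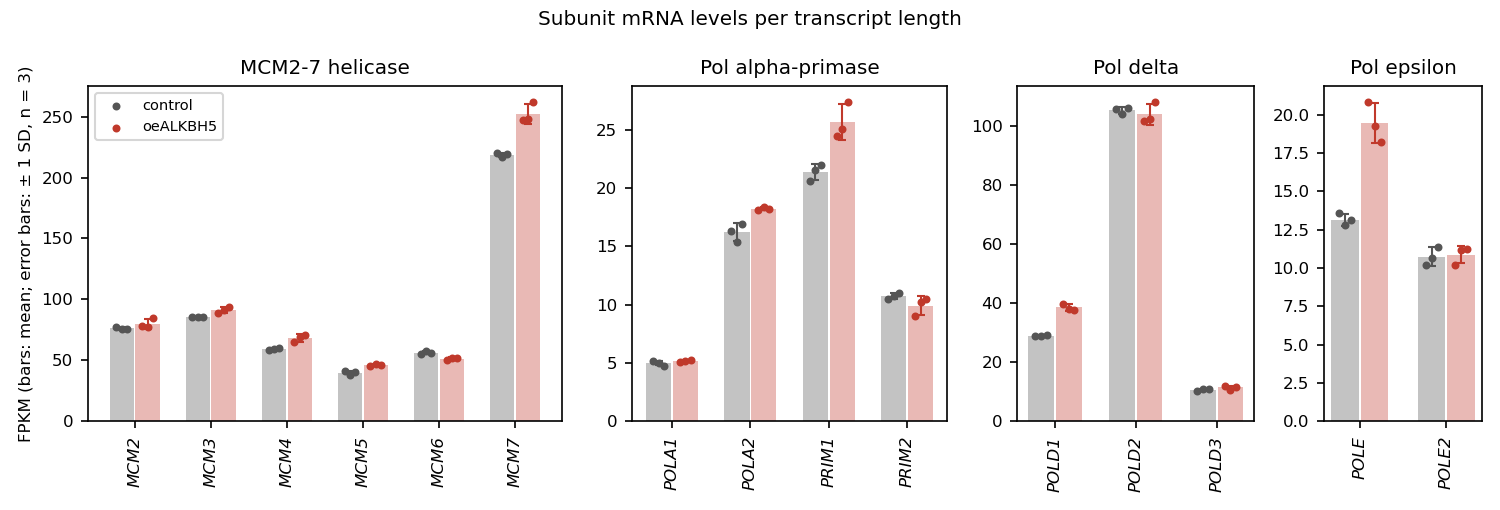
FPKM of the member subunits of MCM2-7, polymerase alpha-primase, polymerase delta and polymerase epsilon in control (grey) and oeALKBH5 (red). POLD4, POLE3 and POLE4 are not members and are not shown. Points are libraries, bars are means and error bars 1 SD (n = 3). Each panel has its own linear axis from 0. POLE and POLD1 stand well above their controls, POLE2 and POLD2 overlap theirs, and the means of MCM6 and PRIM2 lie below.

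Polymerase genes had 3 of 9 higher, POLE, POLD1 and PRIM1, and 1 lower, PRIM2. That is 33.3% and 11.1%, beside 20.8% and 22.0% of all genes. With library size alone and on FPKM the counts were 4 and 0, with POLA2 added. With DESeq2, where PRIM1 and PRIM2 lost their calls, they were 2 and 0. POLE, the catalytic subunit of the leading-strand polymerase epsilon (Entrez 5426, chromosome 12 at 132623753 to 132687365, minus strand of GRCh38, 49 exons), held 151, 135 and 129 CPM in oeALKBH5 and 102, 97.7 and 99.8 CPM in control. It was 1.39-fold higher (0.47, SE 0.0547, adjusted p = 1.13e-06), the largest change among the members, with every oeALKBH5 library far above the controls. POLD1, the catalytic subunit of the lagging-strand polymerase delta, held 131, 125 and 126 CPM against 102, 99.9 and 102 CPM, 1.26-fold higher (0.33, SE 0.0464, adjusted p = 1.20e-05).

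Of the accessory subunits among the members, POLE2 (-0.10, adjusted p = 0.339), POLD2 (-0.09, adjusted p = 0.115) and POLD3 (0.07, adjusted p = 0.371) did not pass. Of those outside the members, POLD4 (-0.27, adjusted p = 4.16e-04) and POLE4 (-0.28, adjusted p = 0.0394) were lower. POLE3 (-0.03, adjusted p = 0.696) did not pass. The groups overlapped for POLE4, which did not pass on FPKM (adjusted p = 0.109). The FPKM ratio of POLE to POLE2 was 2.04, 1.72 and 1.62 in oeALKBH5 and 1.33, 1.202 and 1.15 in control, and that of POLD1 to POLD2 was 0.392, 0.373 and 0.349 against 0.275, 0.277 and 0.275. Neither ratio overlapped between the groups. These pairs were chosen after their values were seen, and each had an exact permutation p = 0.1, the smallest possible.

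In polymerase alpha-primase, which makes the primers, the primase subunits went in opposite directions. PRIM1, the catalytic primase subunit, held 32.6, 33.3 and 36.9 CPM in oeALKBH5 and 29.3, 30.2 and 31.1 CPM in control (0.18, SE 0.0655, adjusted p = 0.0300). PRIM2, the large regulatory subunit, held 19.6, 21.8 and 23.3 against 24.6, 24.5 and 25.6 CPM (-0.21, SE 0.0741, adjusted p = 0.0288). Neither overlapped between the groups, and the FPKM ratio of PRIM1 to PRIM2 was 2.46 to 2.72 in oeALKBH5 and 1.961, 2.005 and 1.996 in control. Both calls depended on single libraries: PRIM1 lost its call without oeALKBH5 replicate 3 or any 1 control (adjusted p = 0.0547 to 0.130, range 0.00309 to 0.130), and PRIM2 without oeALKBH5 replicate 1 or 2 or any 1 control (0.0587 to 0.121, range 0.00805 to 0.221). POLA1 (-0.02) and POLA2 (0.10), the polymerase subunits themselves, did not pass.

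Among clamp, clamp loader and Okazaki fragment genes, 3 of 8 were higher (37.5%) and 0 lower, beside 20.8% and 22.0% of all genes. LIG1, the ligase that seals Okazaki fragments, held 76.7, 75.6 and 82.6 CPM in oeALKBH5 and 70.8, 69.9 and 62.7 CPM in control, without overlap (0.21, SE 0.0569, adjusted p = 0.00603). RFC3 (0.18) and the large clamp loader subunit RFC1 (0.15) were also higher, with adjusted p of 0.0113 and 0.0187. PCNA, the clamp itself, held 201, 207 and 229 CPM against 202, 203 and 202 CPM, so that oeALKBH5 replicates 2 and 3 lay above the controls and replicate 1 just below them; it did not pass (0.07, adjusted p = 0.284). The flap nuclease FEN1 did not pass either (0.12, adjusted p = 0.0611), nor did RFC2 (-0.11), RFC4 (0.05) and RFC5 (0.02). With library size alone and on FPKM, PCNA and FEN1 passed as higher, 5 in all. LIG1 missed the threshold without control replicate 3 (adjusted p = 0.0683, range 4.45e-04 to 0.0683), and RFC1 and RFC3 without control replicate 1 (0.101, range 0.00113 to 0.101, and 0.0597, range 8.26e-04 to 0.0597).

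RPA, the trimer that coats single-stranded DNA, had 0 of 3 higher and 1 lower (33.3%), beside 20.8% and 22.0% of all genes. RPA2 held 58.6, 61.7 and 67.2 CPM in oeALKBH5 and 72.1, 68.4 and 69.2 CPM in control (-0.16, SE 0.0563, adjusted p = 0.0264), with the groups just apart. RPA1 (0.05) and RPA3 (-0.05) did not pass. The RPA2 call was lost without oeALKBH5 replicate 1 or 2 or control replicate 1 or 3 (adjusted p = 0.0604 to 0.109, range 0.00293 to 0.283). It was also lost on FPKM and with library size alone. RPA1 passed as higher with library size alone. RPA3 passed as lower without oeALKBH5 replicate 3 (log2 fold change -0.17, adjusted p = 0.0457).

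Of the nucleotide supply genes RRM2 and TYMS rose and RRM1 did not pass. RRM2, the small subunit of ribonucleotide reductase whose level follows S phase, held 198, 221 and 236 CPM in oeALKBH5 and 189, 189 and 197 CPM in control (0.19, SE 0.0549, adjusted p = 0.00983). TYMS, which makes thymidylate, held 214, 214 and 237 against 195, 195 and 201 CPM (0.17, SE 0.0488, adjusted p = 0.00840). The lowest oeALKBH5 library exceeded the highest control for both, for RRM2 by a narrow margin. RRM1, the large reductase subunit, averaged 113 ± 5.98 CPM against 109.5 ± 5.17 CPM, with overlap (0.05, adjusted p = 0.472). RRM2 missed the threshold without control replicate 1 or 2 (adjusted p = 0.0507 to 0.0519, range 2.88e-06 to 0.0519).

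Both subunits of the histone chaperone CAF-1 that are among the members rose. CHAF1A, its large subunit, held 151, 141 and 151 CPM in oeALKBH5 and 119, 111 and 114 CPM in control, 1.29-fold higher and second in size to POLE (0.37, SE 0.0487, adjusted p = 5.88e-06). CHAF1B held 28.4, 31.2 and 30.8 against 27.3, 26.2 and 26.8 CPM (0.17, SE 0.0652, adjusted p = 0.0404). The groups were apart for both, but CHAF1B lost its call without oeALKBH5 replicate 2 or 3 or any 1 control (adjusted p = 0.0705 to 0.133, range 0.00436 to 0.134). RBBP4, a CAF-1 subunit outside the members, did not pass (0.02, adjusted p = 0.817), with overlap between the groups.

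The oeALKBH5 libraries differed among themselves in these genes. Replicate 3 was the highest of its group for 32 of the 46 members and replicate 1 the lowest for 30. Relative to the control mean, the median member stood at 0.015, 0.071 and 0.14 on the log2 scale in oeALKBH5 replicates 1, 2 and 3, and within 0.018 of it in each control. Replicate 1 was the highest for 6 members, among them POLE, CHAF1A and POLD1, and for ALKBH5 itself. Leaving out oeALKBH5 replicate 1 gave 22 members higher and 3 lower, replicate 2 gave 14 and 3, and replicate 3 gave 15 and 8. Leaving out control replicate 1, 2 or 3 gave 11 and 3, 12 and 4, and 12 and 2. Of all genes, 16.1% to 21.4% were higher and 17.9% to 22.9% lower in these 6 fits.

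**Figure D3:**
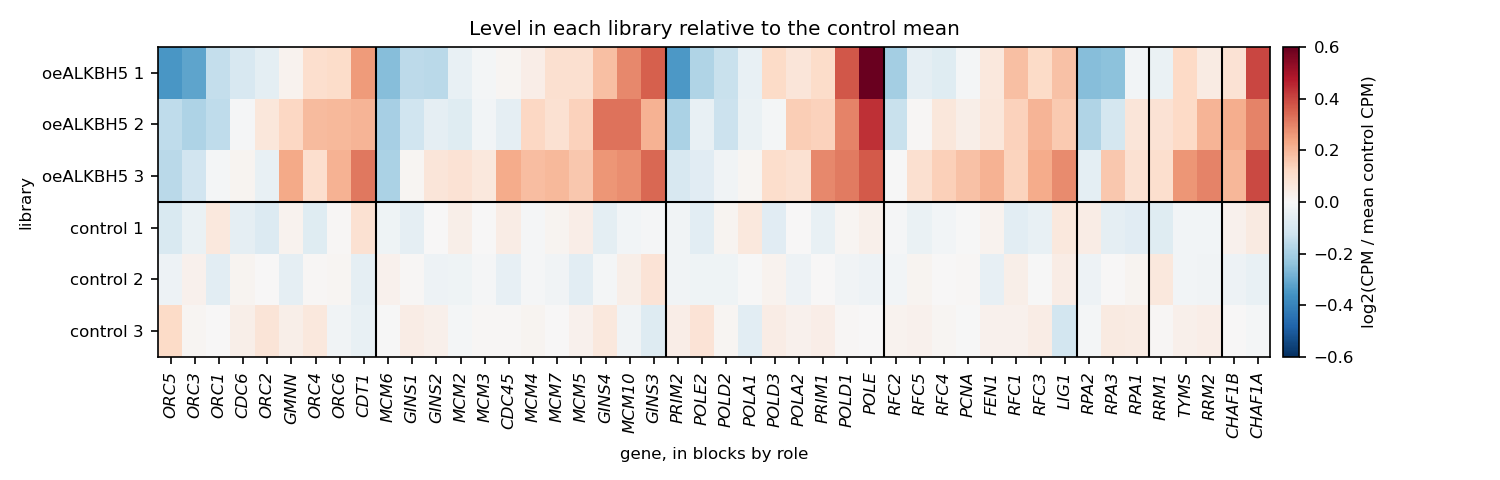
Heat map of log2(CPM over the mean control CPM), with the 6 libraries as rows and the 46 genes as columns in blocks by role, each block ordered by log2 fold change. The 21 members whose oeALKBH5 libraries all lay above the controls, among them POLE, CHAF1A and POLD1, are shades of red in all 3 oeALKBH5 rows. The 5 whose libraries all lay below (ORC3, ORC5, MCM6, PRIM2 and RPA2) are shades of blue in all 3. Some other genes, such as MCM2 and GINS2, turn from blue in replicate 1 to red in replicate 3.

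Transcript length differed among the members and is given because fold changes followed it across all genes. Over 13533 genes the Spearman correlation of log2 fold change with the length of the principal GENCODE transcript was 0.224, and over the 46 members 0.208; genes are not independent replicates and share the libraries. Of 25 members longer than 3000 nt 13 were higher and 1 lower, beside 26.9% and 15.9% of all genes of that length. Of 21 members of 3000 nt or less 6 were higher and 4 lower, beside 14.7% and 29.4%. The members' median log2 fold change was 0.12 in the longer class and 0.049 in the shorter, and that of all genes 0.056 and -0.062. POLE, with 7840 nt, was the longest. The part of length in these results was not tested further.

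Some members cannot be fully separated from other sequence. Exons of 22 members overlap those of another gene of any type. For 12 members, among them CHAF1A, FEN1, MCM7, PRIM1 and TYMS, this is a protein-coding gene on the opposite strand. The strand setting of the counting is not given in the sources used here. Exons of CHAF1B, FEN1, POLA2, POLD1, PRIM1 and RRM2 overlap those of a protein-coding gene on the same strand, which no strand setting separates. For 8 members, among them PCNA, RPA2, RRM2 and TYMS, GENCODE names pseudogenes.

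The other genes of DNA replication had a split like the members' own: 42 of 103 were higher and 14 lower, 40.8% and 13.6% beside 20.8% and 22.0% of all genes, with a median of 0.08. With library size alone the counts were 52 and 7, beside 30.1% and 14.4% of all genes, and on FPKM 50 and 7, beside 29.4% and 16.5%. Of 17 other origin firing factors 9 rose and 1, the replisome factor DONSON, fell (-0.21, adjusted p = 0.00753), a call lost with library size alone and on FPKM (adjusted p up to 0.150 over all alternatives). TICRR, also called treslin, which helps to load CDC45, led them: it held 56.8, 58.6 and 57.4 CPM in oeALKBH5 and 39.8, 35.4 and 36.8 CPM in control, 1.54-fold higher (0.63, SE 0.0577, adjusted p = 4.83e-08). DBF4B (0.40), the E-type cyclins CCNE1 (0.49) and CCNE2 (0.37) and the firing kinase CDC7 (0.19) were higher too. The cyclin CCNA2 did not pass (0.11, adjusted p = 0.30), with overlap between the groups. CDC7 lost its call without oeALKBH5 replicate 2 or 3 or control replicate 1 or 3 (adjusted p = 0.0555 to 0.152, range 0.00322 to 0.152), and CCNE2 without control replicate 2 (0.0524, range 5.80e-04 to 0.0524).

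Of 21 other fork proteins 10 rose and 4 fell, or 13 and 2 with library size alone. The topoisomerase TOP2A (0.42, adjusted p = 1.66e-06) and the checkpoint mediator CLSPN (0.48, adjusted p = 2.12e-06) led the rise. POLD4 (-0.27, adjusted p = 4.16e-04), the small subunit of polymerase delta, and RNASEH2B (-0.28, adjusted p = 0.00839) fell. Of 6 other chromatin assembly and maintenance genes 3 rose and 0 fell, with UHRF1 at 0.41 and the maintenance methyltransferase DNMT1 at 0.24.

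Of 24 nucleotide supply genes outside the members 3 were higher and 7 lower (12.5% and 29.2%, median -0.03), beside 20.8% and 22.0% of all genes. The counts turned to 7 and 3 with library size alone and on FPKM, close to the shares of all genes on those scales. Thymidine kinase TK1, an S phase enzyme, held 91.1, 85.9 and 92.4 CPM in oeALKBH5 and 63.9, 63.8 and 64.2 CPM in control, with wide separation (0.49, SE 0.0503, adjusted p = 2.11e-07). CAD, which starts pyrimidine synthesis, was at 0.42 (adjusted p = 3.98e-06). SAMHD1, which degrades deoxynucleotides, was at -0.35 (adjusted p = 4.73e-04) and SHMT2, the mitochondrial serine hydroxymethyltransferase, at -0.22 (adjusted p = 5.29e-04).

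Of 18 E2F and RB family regulators 9 rose and 1, LIN52 (-0.31), fell. E2F8 (0.53, adjusted p = 8.13e-06) and E2F2 (0.55, adjusted p = 9.35e-05) had the smallest p, and E2F1 held 99.8, 101 and 103 CPM against 91.2, 87.8 and 88.4 CPM (0.18, adjusted p = 0.00385). Genes that turn over or hold back licensing factors had 3 of 8 higher (37.5%), such as the F-box protein CCNF (0.40) and FZR1 (0.17). DDB1, part of the ubiquitin ligase that removes CDT1 in S phase, was lower: 692, 677 and 684 CPM against 865, 863 and 881 CPM (-0.35, SE 0.0419, adjusted p = 1.93e-06). FZR1 lost its call without control replicate 2 or 3 (adjusted p = 0.0622 to 0.0934, range 9.39e-04 to 0.0934). In the ATR checkpoint, which responds to stalled forks, 5 of 9 rose (55.6%) and 0 fell, beside 20.8% and 22.0% of all genes. RAD9A (0.27) and CHEK1 (0.22, adjusted p = 0.00542) were among those that rose. With DESeq2 the counts were 3 and 0.

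**Figure D4:**
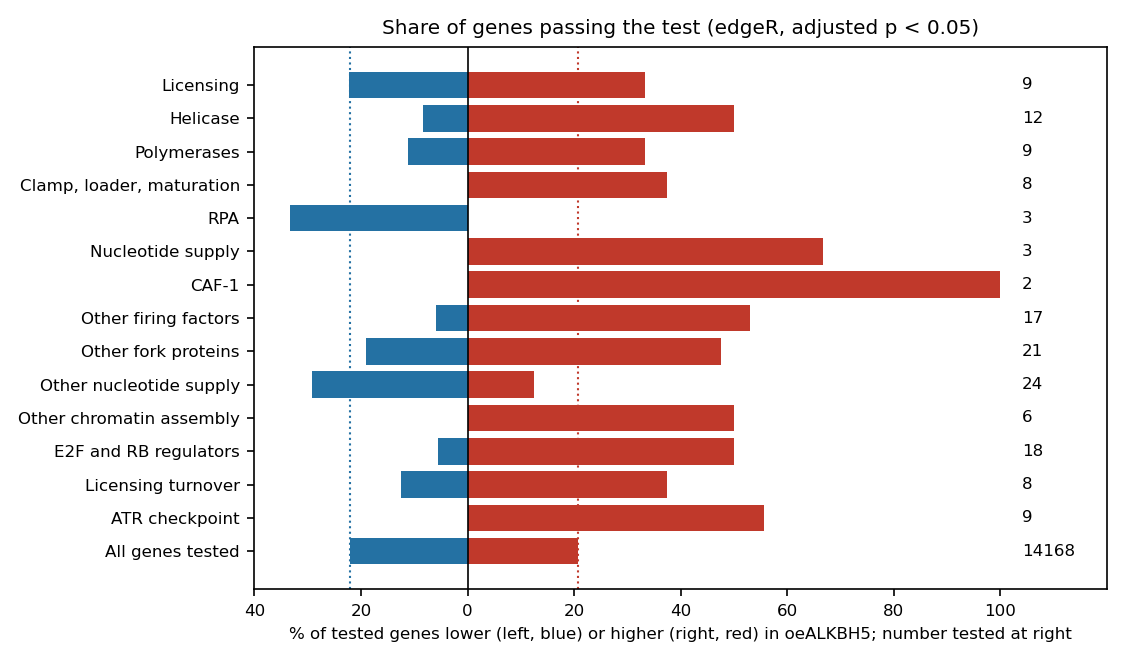
Share of tested genes that were higher (red, right) or lower (blue, left) in oeALKBH5 at an adjusted p under 0.05, for the members by role, the other replication lists and all genes (number tested at right); dotted lines mark the all-gene shares of 20.8% and 22.0%. Most lists reach further to the right than all genes do, while RPA and other nucleotide supply do not and reach further to the left.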

How the data were processed

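RNA of 3 oeALKBH5 and 3 control Huh-7 libraries was analysed. For each RefSeq transcript the authors deposited an unscaled estimated count and an FPKM. The submitters' processing notes name RSEM 1.2.8, Bowtie2 2.2.5, HISAT2 2.1.0 and the build GRCh38.p13; roles, filters and strand setting: not given in the sources used here. Values of transcripts with one Entrez identifier were added (18030 genes), and the added estimated counts were rounded.

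All genes were fitted with edgeR 4.0.16 (R 4.3.3): TMM scaling, filterByExpr at a minimum count of 10, robust quasi-likelihood test, group as the single term, two-sided, Benjamini-Hochberg adjustment over 14168 genes, threshold 0.05. SE was the absolute log2 fold change over the root of F. The FPKM alternative used limma 3.58.1 on log2(FPKM + 1) where 3 libraries or more reached 1 FPKM; fold changes there understate low genes. Alternatives were DESeq2 1.42.0, its size factors, upper quartile, library size alone, limma-voom, other filters (none, or a mean count of 50) and pseudocount (0.1), a threshold of 0.01, a replicate block, and each library left out. Scripts were tested on simulated counts. Lengths and positions came from GENCODE 29 (GRCh38), promoters from RefSeq. Exact permutation tests used scipy 1.17.1 and figures matplotlib 3.10.9.

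Members and gene lists were chosen with earlier results of these data known. Library values are given for members that passed and either moved by 0.25 or more (log2) or led their role, plus some named after their values were seen; of each other list, up to 2 genes that rose and 2 that fell, by p, and 7 set genes (E2F1, TK1, CCNE1, CCNE2, CDC7, TOP2A, CHEK1). No libraries agreed within counting noise.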

Additional observations from a re-analysis of the deposited data

How the results depend on the processing

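Over 18 alternatives, the number of members higher (19) was 10 at an adjusted p under 0.01 and 11 to 22 with a library left out. The number lower (5) was 1 with library size alone and in the 3 fits on FPKM (MCM6 in each), 2 at an adjusted p under 0.01, and 2 to 8 with a library left out. Of all genes, 13.9% were higher and 16.1% lower at an adjusted p under 0.01. With a library left out, 16.1% to 21.4% of all genes were higher and 17.9% to 22.9% lower. With library size alone 14.4% of all genes were lower, and in the FPKM fits 10.0% to 16.5%. Of the other replication genes 42 were higher (29 to 47 with a library left out) and 14 lower, which became 7 with library size alone and in the 3 FPKM fits, 9 at an adjusted p under 0.01, and 10 to 16 with a library left out. Same-numbered libraries did not deviate together (correlations -0.019, 0.016 and -0.012). The labels state no pairing, and with so few libraries this check cannot exclude it. With the replicate block 21 members were higher and 5 lower, beside 22.1% and 23.6% of all genes. ALKBH5 missed the threshold in that fit (log2 fold change 0.89, adjusted p = 0.0538). Signs turned for 10 members that did not pass in the main comparison. Of these, 1 passed in any fit: RPA3, as lower without oeALKBH5 replicate 3. With library size alone the log2 fold changes became 0.051 (CDC6), 0.033 (GINS2), 0.070 (MCM2), 0.067 (ORC2), 0.056 (POLA1) and 0.026 (RPA3). With upper quartile scaling they were 0.010 (MCM2) and 0.0070 (ORC2), and with a mean count of at least 50 MCM2 was at 0.0008. On log2(FPKM + 1), with or without the filter, they were 0.058 (CDC6), 0.028 (GINS2), 0.068 (MCM2), 0.068 (ORC2), 0.039 (POLA1), 0.015 (POLE2) and 0.017 (RPA3). On log2(FPKM + 0.1) they were 0.060, 0.029, 0.069, 0.073, 0.045, 0.016 and 0.017 in that order. With a library left out, values ran from -0.021 to 0.12 (CDC45), -0.056 to 0.0057 (CDC6), -0.11 to 0.011 (GINS2), -0.057 to 0.027 (MCM2), -0.012 to 0.031 (MCM3), -0.053 to 0.026 (ORC2), -0.056 to 0.0090 (POLA1), -0.022 to 0.053 (RFC5) and -0.17 to 0.037 (RPA3). The cause was not tested. Changes of this size sit near what 3 libraries a group can resolve, so a member that did not pass is not shown to be unchanged.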

Other observations

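RefSeq lists several transcripts for most members, and the leading one (the highest mean FPKM) kept a like share in both groups for most. The leading PCNA transcript made up 99.2%, 99.5% and 99.4% of PCNA FPKM in oeALKBH5 and 98.98%, 97.8% and 97.7% in control. The estimates were unstable between libraries of 1 group for other genes: the leading POLA1 transcript took 2.96%, 40.3% and 51.7% in oeALKBH5 and 23.3%, 51.0% and 78.5% in control, and that of LIG1 82.1%, 54.5% and 58.2% against 64.7%, 44.4% and 53.6%. No difference in transcript use was tested.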
